A study of Bos taurus with 20 samples.

Results

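The second day of low serum was described in cultured bovine satellite cells by comparing 4 RNA sequencing libraries taken at 48 h with 4 taken at 24 h, which are 8 of the 20 libraries of the series. Satellite cells are the stem cells of skeletal muscle. After injury or in culture they divide as myoblasts, and when growth factors are withdrawn they leave the cell cycle, switch on muscle genes and fuse into multinucleated myotubes. Lowering the serum in the medium is the usual way to start this program in a dish.

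The cells came from the Belgian Blue breed and were labelled as satellite cells and as muscle progenitor cells. All groups were first grown on collagen with 20% fetal bovine serum. The 0 h libraries were taken in that medium, and later ones every 24 h up to 96 h after a change to 2% serum. Each time point had 4 replicates, A to D, of which A and B were labelled batch 1 and C and D batch 2. The labels call the replicates biological but do not say whether they came from different animals, so p-values measure the spread between these cultures. Total counts in the 8 libraries ranged from 21346320 to 39818794. The table names genes by Ensembl identifier only, and 0 of these could be paired with a symbol here. Neither the labelled cell type nor any muscle or other cell marker could therefore be checked, and the changes below are described by size, level and timing and not by gene function.

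Expression levels are CPM, counts brought to a common depth, on library sizes scaled by the trimmed mean of M-values (TMM). A gene was called changed at an adjusted p under 0.05 in edgeR's quasi-likelihood test across 14636 genes, and "rose" and "fell" below mean called higher and lower. Errors given after ± are SDs. SE is the standard error of a log2 change. All directions are relative to the TMM scaling. In bulk RNA, a change in the number of cells of a kind and a change in RNA per cell cannot be told apart.

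Between 24 h and 48 h, 9253 genes (63.2%) changed. Of these 4590 (31.4%) rose and 4663 (31.9%) fell. The numbers were close, but the sizes were not. On the side of the rises 1266 genes (8.65%) reached 2-fold, 511 (3.49%) 4-fold, 238 (1.63%) 8-fold and 98 (0.670%) 16-fold. On the side of the falls 715 genes (4.89%) reached 2-fold, 46 (0.314%) 4-fold, 2 (0.0137%) 8-fold and 0 16-fold. Many of the steep rises began near 0, and such genes could pass the filter on low counts only through time points at which they were higher. A level of 1 CPM or more at 24 h was held by 256 of the 511, 98 of the 238 and 31 of the 98. How far the filter sets the difference in size was not tested. The 4 libraries at 48 h lay above all 4 at 24 h for 28.0% of genes and below them all for 27.4%. With library sizes left unscaled, the median gene moved from -0.03 to -0.32 on the log2 scale and the calls split into 2666 higher and 8132 lower. At 2-fold the order then turned, with 930 higher and 1590 lower, but it held further out, with 388 rises and 92 falls of 4-fold and 77 and 0 of 16-fold.

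Each gene was then placed by what it had done on the first day, from 0 h to 24 h, when 9683 genes (66.2%) changed, 4636 (31.7%) up and 5047 (34.5%) down. A change was taken as continued if called in the same direction on both days and as reversed if called in opposite directions. It was taken as started if called on the second day, not called on the first and within 0.32 of 0 there on the log2 scale. The 24 h libraries enter both comparisons, so an error in them would push the 2 changes in opposite directions. For this reason the classes are also given as picked from a single batch and followed in the other one, where no library is shared.

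About equal shares of the rises and falls of the first day went on. Of the 4636 genes that rose on the first day, 2346 (50.6%) rose again, 1360 (29.3%) did not pass the test on the second day and 930 (20.1%) fell back. Of the 5047 that fell, 2535 (50.2%) fell again, 1605 (31.8%) did not pass and 907 (18.0%) rose back. Of all 14636 genes, 33.3% continued in either direction, 12.6% reversed and 20.3% ended a change of the first day. Another 1146 genes started to rise and 1114 to fall, together 15.4%. The first day was unclear for 191 later rises and 84 later falls, together 1.88%, which were not called on that day but lay beyond that limit. With unscaled library sizes the balance was different: 33.7% of first-day rises continued and 38.8% reversed, while 76.1% of first-day falls continued and 6.86% reversed. Within batch 1 alone 47.1% of rises and 44.4% of falls continued, and within batch 2 alone 46.7% and 44.6%.

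**Figure D1:**
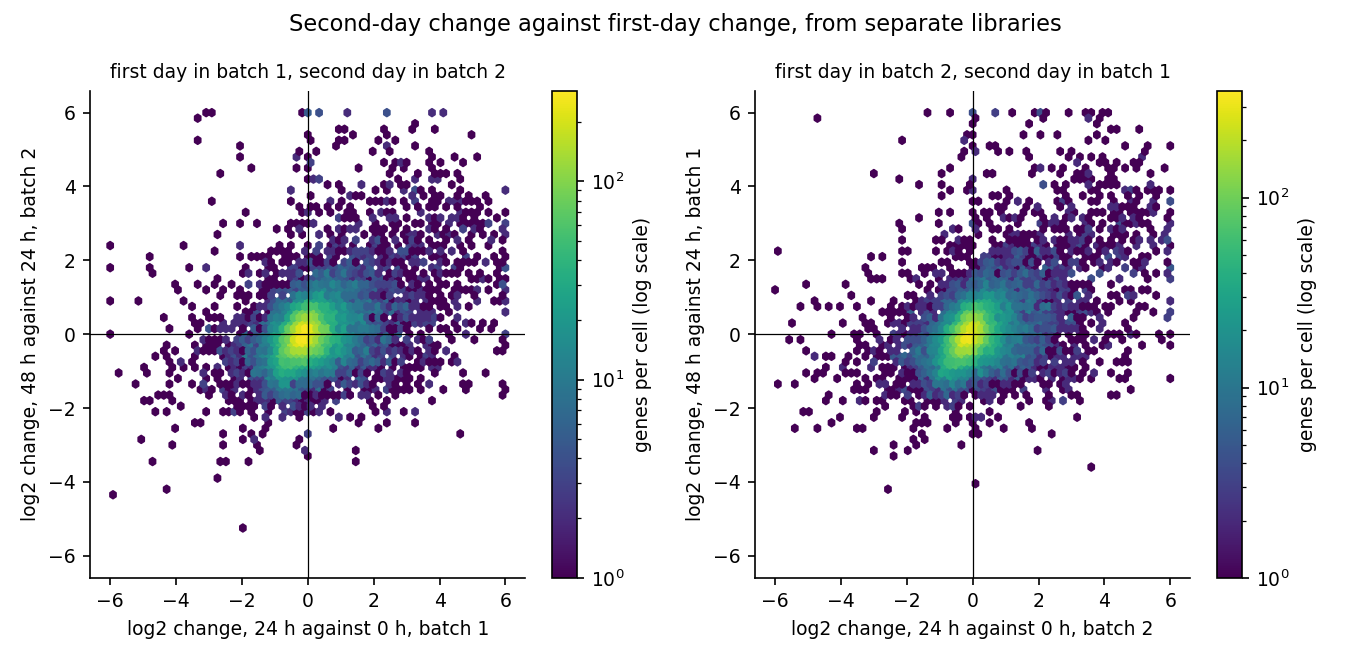
Log2 change from 24 h to 48 h in one batch (vertical axis) against log2 change from 0 h to 24 h in the other batch (horizontal axis), with more extreme values drawn at the edge. Colour gives the number of genes per hexagon on a log scale. Most genes lie near 0 on both axes, and the widest spread is towards the upper right, where both days brought a rise.

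Genes with the largest first-day rises rose again most often. Of 858 genes that had risen at least 4-fold by 24 h, 576 (67.1%) rose further and 108 (12.6%) fell, with a median second-day change of 1.13 on the log2 scale. Below 4-fold the share that rose again followed no order by size with TMM scaling. It was 48.0% of 993 genes that had risen 2 to 4-fold, 42.4% of 943 that had risen 1.5 to 2-fold and 48.5% of 1842 with smaller rises. The median second-day change was larger after rises of 2 to 4-fold, at 0.36, than after the smaller ones, at 0.14 and 0.16. With unscaled library sizes 58.8% of the rises of at least 4-fold went further, and the shares for the smaller sizes followed their order, at 37.0%, 28.1% and 24.4%. The rises of at least 4-fold also stood apart without shared libraries. Chosen in batch 1, they had a median second-day change of 0.95 in batch 2, against 0.28, 0.14 and 0.15 for the smaller sizes. From batch 2 to batch 1 the values were 1.21 against 0.35, 0.23 and 0.21. Genes still low at 24 h after such a rise could pass the filter on low counts only through time points at which they were higher. That favours a further rise, also across batches, and how far it sets these shares and medians was not tested.

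Genes with the largest first-day falls were not those called again most often. Of 190 genes that had fallen at least 4-fold by 24 h, 83 (43.7%) fell again and 85 (44.7%) did not pass the test, with a median second-day change of -0.62. Genes that had fallen 1.5 to 2-fold went on to fall in 730 of 1217 cases (60.0%), with a median of -0.40. Across batches the medians were -0.67 and -0.63 after a fall of at least 4-fold and -0.38 and -0.41 after one of 1.5 to 2-fold.

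Continued rises supplied most of the strong rises. The median gene of this class gained 0.85 on the log2 scale on the first day and 0.78 on the second, and 916 of the 2346 genes rose at least 2-fold on the second day alone. They made up 51.1% of all second-day rises but 72.4% of those of at least 2-fold, and 66.4% and 74.7% with unscaled library sizes. Continued falls of at least 2-fold numbered 427, but with unscaled library sizes they outnumbered the continued rises of that size, 865 against 695. The test of the difference between the days found a larger second-day gain in 479 of the 2346 genes and a smaller one in 637, and 1230 did not pass. Across all genes this test called 6891 (47.1%), 3469 higher and 3422 lower on the second day than on the first. With unscaled library sizes it called 1496 higher and 6759 lower, and among the continued rises 180 higher and 1173 lower.

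ENSBTAG00000001032 had the largest second-day change among the 1619 continued rises with at least 10 CPM and no overlap between the libraries. It stood at 0.254, 0.620, 0.301 and 0.366 CPM in replicates A to D at 0 h and at 3.34, 4.95, 6.66 and 4.63 CPM at 24 h. At 48 h the same replicates held 274, 239, 305 and 255 CPM. Every library at 48 h lay far above every library at 24 h, which the choice of the gene required. The log2 change was 5.78 (SE 0.18, edgeR adjusted p = 1.97e-14), after 3.55 (SE 0.31) on the first day. The second-day gain was the larger of the 2 (edgeR test of the difference, 2.23, SE 0.52, adjusted p = 0.00199). Later means were 577 ± 106 CPM (n = 4) at 72 h and 485 ± 50.1 CPM (n = 4) at 96 h.

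The transcripts that led the libraries at 48 h were nearly all continued rises. Ranked by mean level at 48 h, 9 of the first 10 genes belonged to this class and the other was a started rise, and 2 of the 10 had also been among the first 10 at 24 h. The most abundant gene averaged 42.1 CPM at 0 h and went from 1741 ± 405 CPM (n = 4) to 15640 ± 930 CPM (n = 4) on the second day. Its log2 change was 3.17 (SE 0.20, edgeR adjusted p = 5.02e-10). The fourth gene went from 318 ± 93.7 CPM (n = 4) to 6977 ± 400 CPM (n = 4), a log2 change of 4.46 (SE 0.29, edgeR adjusted p = 6.43e-10). The tenth, the started rise, averaged 1190 CPM at 0 h and went from 1125 ± 126 CPM (n = 4) to 4320 ± 222 CPM (n = 4), a log2 change of 1.94 (SE 0.07, edgeR adjusted p = 1.39e-16). These genes are given by rank. Their level at 48 h set the rank and also enters their class and change, so the choice favoured rises. Of the first 10 genes at 24 h, 5 were continued falls, 2 continued rises, 2 reversed rises and 1 an ended rise. Of the first 100 at 24 h, 27 were continued falls and 25 continued rises. Among the first 100 genes at 48 h, 61 were continued rises, 11 were reversed falls and 8 were continued falls, and 62 of the 100 were shared with the first 100 at 24 h.

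Of the counts at 0, 24 and 48 h, continued rises held 9.86 ± 0.174%, 20.0 ± 0.969% and 37.2 ± 0.628%, with n = 4 libraries at each time. Continued falls went the other way over the same times, from 32.7 ± 0.359% to 22.9 ± 0.692% and 13.2 ± 0.309%. The classes were chosen on these libraries, so their shares describe where the counts went and are not a test. The counts as a whole became more concentrated on the second day. Each library's own 10 most abundant genes held 4.99, 4.98, 4.66 and 4.72% of its counts in replicates A to D at 24 h and 7.47, 7.30, 7.98 and 7.44% at 48 h. The groups did not overlap, and the mean rose by 2.71 percentage points (two-sided exact permutation test, p = 0.0286, the smallest that 4 against 4 libraries allow). The gain was 2.40 points in batch 1 and 3.02 in batch 2. The number of genes that held 50% of the counts was 912, 918, 930 and 922 at 24 h and 684, 685, 663 and 690 at 48 h (exact permutation p = 0.0286). At 0 h it had been 851 ± 24.7 (n = 4).

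Started rises were mostly moderate. Their median second-day change was 0.44 on the log2 scale, and 111 of the 1146 genes rose at least 2-fold. For 724 of them the second-day change was itself larger than that of the first day by test, and for 222 with unscaled library sizes. These genes were chosen on the same libraries for a second-day rise and a small first-day change, which favours this outcome. Their median level at 0 h was 32.9 CPM. The limit on the first-day change favours genes with many counts, and the 191 later rises beyond that limit had a median of 0.109 CPM at 0 h. As the choice also favours, 1047 of the started rises were above their 0 h level at 48 h. Unscaled library sizes put 660 of the 1146 above it and 42 below. Chosen in batch 1, they had a median second-day change of 0.47 in batch 2 and a first-day change of 0.08, and 66.5% were already higher at 24 h there. Chosen in batch 2, the values in batch 1 were 0.48 and -0.04, with 40.6% higher. With unscaled library sizes 465 genes met the definition, and 2660 met that of a started fall.

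ENSBTAG00000040053 led the started rises by size, among 773 that met the same rule. It was at 0.817, 1.13, 1.71 and 1.24 CPM in replicates A to D at 0 h and at 0.662, 0.990, 0.985 and 1.51 CPM at 24 h. The ranges of these time points overlapped, and the first-day change of -0.24 did not pass (SE 0.30, edgeR adjusted p = 0.505). At 48 h it stood at 28.3, 26.0, 36.1 and 38.7 CPM, a log2 change of 4.95 (SE 0.21, edgeR adjusted p = 3.44e-13). It then stayed at 22.8 to 28.5 CPM at 72 h, and at 96 h at 30.8 and 29.9 CPM in batch 1 and 50.3 and 53.9 CPM in batch 2.

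**Figure D2:**
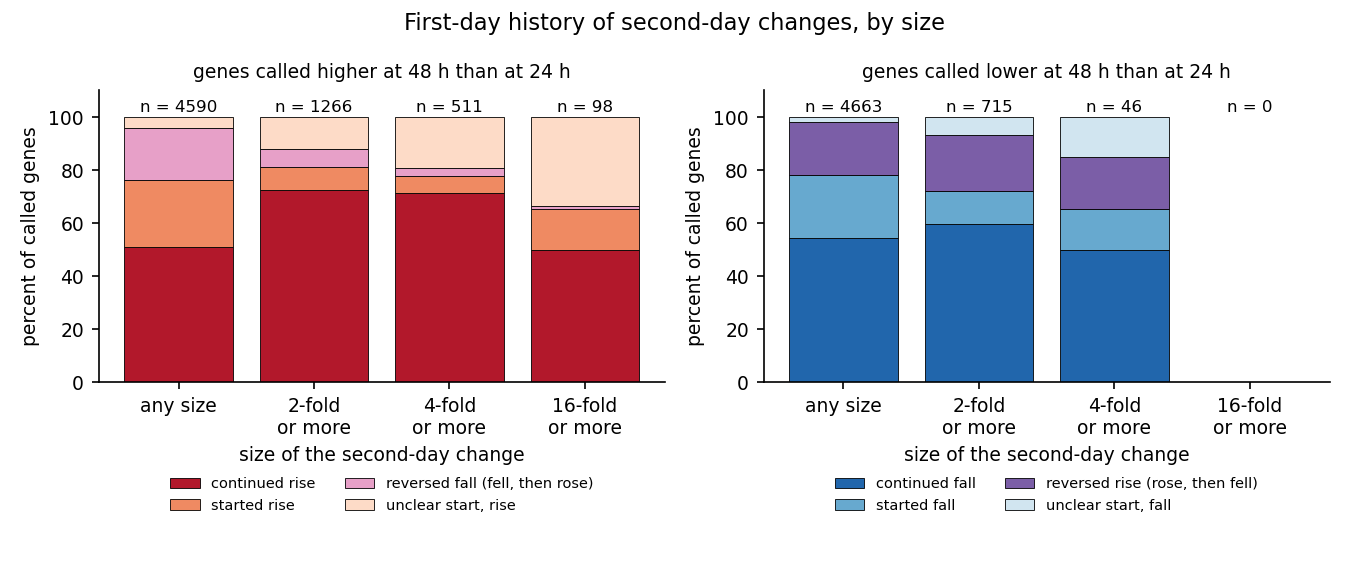
First-day history of the genes called higher (left) and lower (right) at 48 h than at 24 h, as percent of the called genes (vertical axis) for changes of any size and of at least 2, 4 and 16-fold (horizontal axis), with the number of genes above each bar. Continued rises grow from 51.1% to 72.4% between any size and 2-fold, and reversed falls shrink from 19.8% to 6.64%, while reversed rises make up 19.9% and 21.4% of the falls.

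Most of the steepest rises were in genes at a low level at 24 h. The 98 genes that rose at least 16-fold had a median of 0.0901 CPM at 24 h and 3.38 CPM at 48 h. Of them 31 had 1 CPM or more at 24 h, and the highest stood at 318 CPM. Genes near 0 at 24 h could pass the filter on low counts only through time points at which they were higher. The low start is therefore not read as a trait of these genes. The size of so steep a rise is uncertain, because 12 of the 98 had 0 counts over the 4 libraries at 24 h and 21 had 1 to 3. With each of the 12 given 3 counts at 24 h, summed over that group, 88 of the 98 genes were still past 16-fold. By history, 49 of the 98 were continued rises, 15 started rises, 1 a reversed fall and 33 rises after an unclear first day. The 191 rises of that last kind had a median of 15 counts over the 4 libraries at 0 h, 18 at 24 h and 77 at 48 h, too few at the first 2 time points to tell a start from a continuation. Only 2 genes lacked any count in the 8 earlier libraries (0 h and 24 h) and had at least 10 in each at 48 h, and both were under 1 CPM there, at 0.640 and 0.686. No gene showed the opposite, from at least 10 counts in each library at 24 h to 0 counts at 48 h.

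The pace of the continued falls depended on the scaling. With TMM the median gene of this class changed by -0.55 on the first day and by -0.55 on the second. The difference between the days did not pass for 1736 of the 2535 genes. It was higher on the second day, a slower fall, in 428 and lower in 371, or 160 and 1359 with unscaled library sizes. At 48 h 427 genes had fallen at least 2-fold and 23 at least 4-fold since 24 h, and with unscaled library sizes 865 and 51. The median level of this class at 0 h was 42.7 CPM, against 12.8 CPM for the continued rises and 18.5 CPM for all genes tested. The 0 h libraries enter the first-day change that chose the classes, which favours high levels in falls and low levels in rises. Ended falls and ended rises were split in the same way, at 23.8 and 5.51 CPM. The level is therefore not read as a trait of the continued falls.

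ENSBTAG00000013736 had the largest second-day fall of the 1640 continued falls that met the rule. Its level was 70.7, 62.1, 54.9 and 63.4 CPM in replicates A to D at 0 h and 16.8, 16.7, 13.9 and 18.5 CPM at 24 h. At 48 h it was 4.26, 4.21, 4.0 and 4.06 CPM, below every library at 24 h. The second-day change was -1.99 on the log2 scale (SE 0.14, edgeR adjusted p = 4.49e-11), close to -1.93 (SE 0.12) on the first day, and the difference of -0.07 between the days did not pass (SE 0.22, edgeR adjusted p = 0.827). Later means were 3.33 ± 0.537 CPM (n = 4) at 72 h and 3.57 ± 0.998 CPM (n = 4) at 96 h.

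Started falls had a median change of -0.47, with 88 of 1114 genes at least 2-fold lower. The difference from the first day, which the choice favoured here too, passed for 581. It passed for 1062 of the 1114 with unscaled library sizes, and within batch 1 and batch 2 alone for 357 and 254. Their median level at 0 h was 18.7 CPM, below the 32.9 CPM of the started rises. Chosen in one batch, they changed by a median of -0.47 and -0.45 in the other, and 98.7% and 99.1% were lower there.

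**Figure D3:**
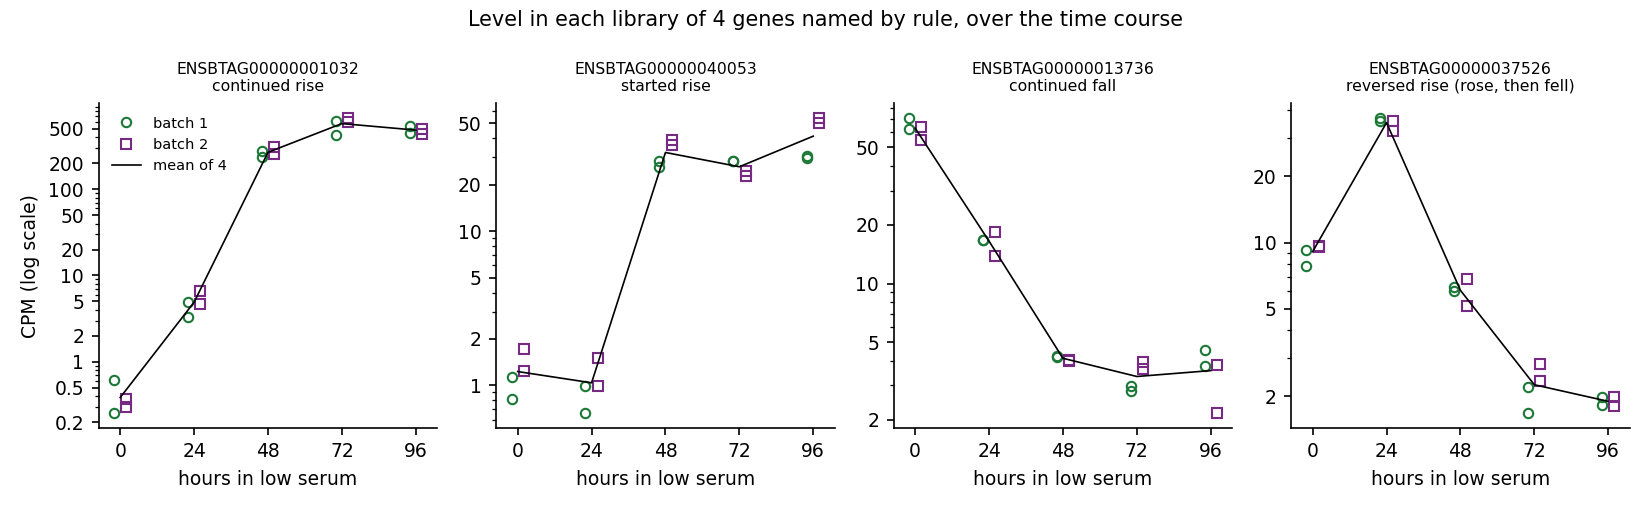
CPM on a log axis (vertical, a separate scale in each panel) against hours in low serum for the 4 genes named by rule. Circles are batch 1, squares batch 2 and the line joins the means of 4 libraries. ENSBTAG00000001032 climbs on both days, ENSBTAG00000040053 only after 24 h, ENSBTAG00000013736 falls on both days, and ENSBTAG00000037526 peaks at 24 h.

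Reversals ran in both directions but differed in size and level. The 930 genes that rose and then fell had gained a median of 0.69 on the log2 scale by 24 h and then changed by -0.57, and 153 of them fell at least 2-fold on the second day. The 907 genes that fell and then rose had changed by a median of -0.36 and then by 0.42, and 84 rose at least 2-fold. The first group was of low level, with a median of 8.60 CPM at 0 h, 15.4 CPM at 24 h and 11.2 CPM over all 20 libraries. The second group had medians of 55.6, 42.6 and 58.6 CPM. Ended rises were lower than the first group, at 5.51, 9.19 and 8.17 CPM with 53.2% under 10 CPM. Ended falls stood at 23.8, 17.0 and 18.9 CPM. A low level was thus not particular to reversed rises. Genes with few counts need a larger change to be called, so the differences in size and in level cannot be told apart here. Of the first group 47.7% averaged under 10 CPM, against 12.2% of the second and 36.7% of all genes. These 2 shares were 48.8% and 12.6% with RLE scaling and 38.4% and 15.8% with unscaled library sizes. Classes built on batch 1 gave 46.2% and 9.69%, and those built on batch 2 gave 40.1% and 9.22%. The numbers of genes depended more on the scaling, with 2038 reversed rises and 292 reversed falls when library sizes were left unscaled, and on the threshold, with 603 reversed falls at an adjusted p under 0.01.

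ENSBTAG00000037526 showed the largest second-day fall of the 437 reversed rises that met the rule. It was at 9.30, 7.87, 9.55 and 9.70 CPM in replicates A to D at 0 h, at 36.8, 35.6, 32.3 and 35.8 CPM at 24 h and at 6.28, 6.02, 6.82 and 5.16 CPM at 48 h. The 24 h libraries stood apart above both other groups. The log2 change was 1.95 on the first day (SE 0.10, edgeR adjusted p = 1.83e-14) and -2.53 on the second (SE 0.10, edgeR adjusted p = 7.55e-16). At 48 h the gene was below its level at 0 h, with a log2 change of -0.58 (SE 0.10, edgeR adjusted p = 2.48e-05). Later means were 2.26 ± 0.459 CPM (n = 4) at 72 h and 1.90 ± 0.101 CPM (n = 4) at 96 h.

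The comparison of 48 h with 0 h, which uses no 24 h library, gave the net result of these reversals. Across all genes it called 11483 (78.5%), 5709 higher (39.0%) and 5774 lower (39.5%), or 4472 and 7314 with unscaled library sizes. Of the 930 genes that rose and then fell, 373 were still above their 0 h level at 48 h, 125 were below it and 432 did not pass. Of the 907 that fell and then rose, 225 were still below, 304 were above and 378 did not pass. With unscaled library sizes, 251 of the 930 were above and 324 below, and of the 907 135 were above and 498 below. In batch 1 alone 255 of the 907 were below and 213 above, and in batch 2 alone 154 and 286, so which of these was more frequent turned with the batch.

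The reversed classes held up in libraries that had not chosen them. Of 709 genes that rose and then fell in batch 1, 696 were lower at 48 h than at 24 h in batch 2, with a median change of -0.59, and 413 were called in the same class there. Of 516 such genes in batch 2, 515 were lower in batch 1, with a median of -0.61. Of 733 genes that fell and then rose in batch 1, 721 were higher at 48 h in batch 2, with a median of 0.46, but 317 were called in the same class. Among the 423 chosen in batch 2, 419 were higher in batch 1, with a median of 0.44. None of the genes in these 4 lists was called in the opposite direction on the second day in the other batch. For continued and started classes at least 98.7% of genes kept their second-day direction across batches. A test of whether the second-day change differed between the batches called 0 genes in edgeR, with 434 (2.97%) at an unadjusted p under 0.05, and 0 genes in DESeq2, with 239 at an unadjusted p under 0.05. Without the low-count filter edgeR called 10.

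**Figure D4:**
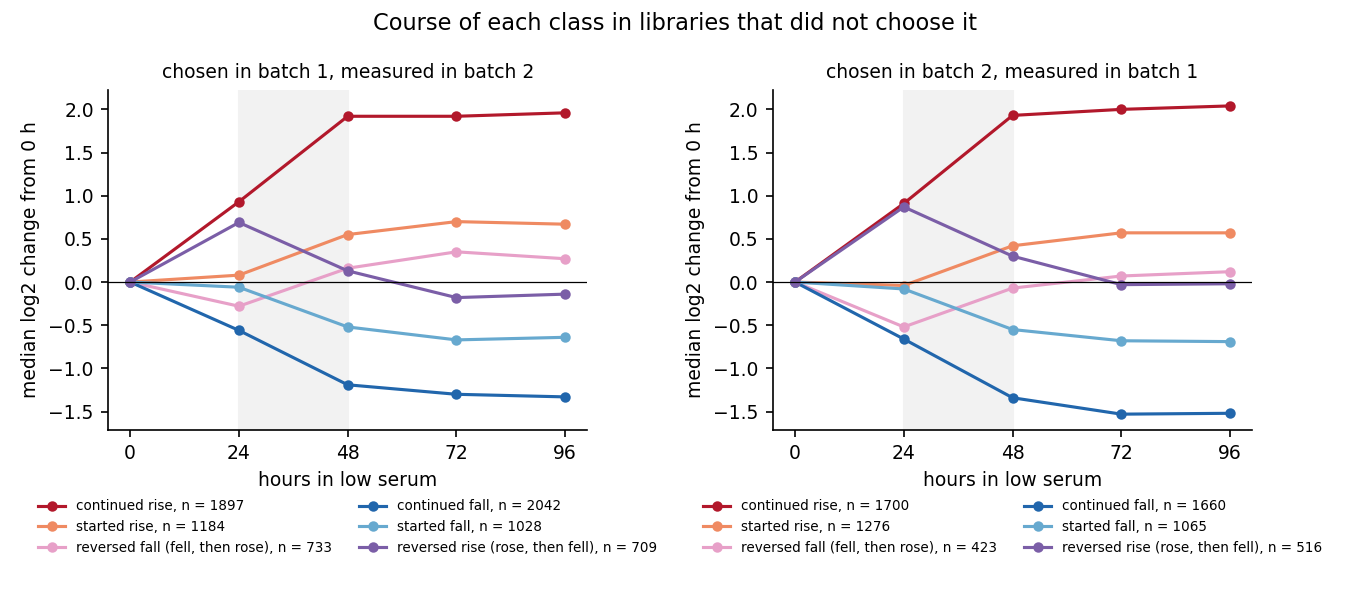
Median log2 change from 0 h (vertical axis) against hours in low serum for 6 classes, picked in a batch and followed in the other, with the shaded band marking the second day and the number of genes in each legend. Continued rises reach 1.92 and 1.93 at 48 h and 1.96 and 2.04 at 96 h. Reversed rises drop from 0.69 and 0.87 at 24 h to 0.13 and 0.30 at 48 h and lie at -0.18 and -0.03 at 72 h.

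The continued classes were chosen by their changes up to 48 h, so only their course after 48 h is free of the choice. Continued rises chosen in batch 1 were at a median of 0.93, 1.92, 1.92 and 1.96 above 0 h in batch 2 at 24, 48, 72 and 96 h, and continued falls at -0.56, -1.19, -1.30 and -1.33. For continued rises chosen in batch 2, the medians in batch 1 were 0.91, 1.93, 2.00 and 2.04. As a share of counts, the continued rises of all libraries held 37.2, 41.3 and 45.0% at 48, 72 and 96 h. Reversed rises were lower again after 48 h, at -0.18 and -0.03 at 72 h in the 2 directions of choice, with 17.9% and 14.7% of genes above their 48 h level. Reversed falls were higher again, with 77.9% and 75.9% of genes higher at 72 h than at 48 h. The 48 h libraries that measured these later steps had not taken part in choosing the genes.

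The mix of classes differed with the level before the change of medium. Genes under 1 CPM at 0 h could pass the filter on low counts through later time points at which they were high, so no direction is read from the 835 rises among their 1105 changes. Ranked by the mean over all 20 libraries, genes under 1 CPM rose in 351 cases and fell in 339, and 30.9% of those called rose with unscaled library sizes. From 1 CPM at 0 h upwards, falls were more frequent than rises at every level. From 1 to 10 CPM 810 of 1902 changed genes (42.6%, or 20.8% unscaled) rose. The shares that rose were 47.7% at 10 to 100 CPM, 45.9% at 100 to 1000 CPM and 35.8% of 53 changed genes at 1000 CPM and over. Unscaled, these 3 shares were 20.5%, 20.6% and 15.5%. From 100 to 1000 CPM, 598 of 1926 genes were continued falls, 266 were reversed falls and 69 were reversed rises. The 0 h libraries set these levels and also enter the first-day change. A high level at 0 h therefore favours classes with a first-day fall, and no link of level with these classes is read from their numbers. The share of genes called moved with level too, from 49.6% under 1 CPM to 76.3% at 100 to 1000 CPM.

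Among genes of 1 to 1000 CPM at 0 h, reversal of a rise was most frequent between 1 and 10 CPM with both batches together. Of first-day rises, 26.5% reversed at 1 to 10 CPM, against 19.4% at 10 to 100 CPM and 20.5% at 100 to 1000 CPM. Genes under 1 CPM are left out here, because the filter could keep them through later time points at which they were high. With the first day from batch 1 and the second from batch 2 the 3 shares were 17.5%, 15.5% and 18.6%. The other way round they were 21.7%, 14.7% and 18.6%, so the highest share moved to 100 to 1000 CPM in the first of these 2 settings. Reversal of a fall became more frequent with level from 1 to 1000 CPM in all 3 settings. It was 10.9% of falls at 1 to 10 CPM, 18.0% at 10 to 100 CPM and 23.9% at 100 to 1000 CPM, and across batches 5.62%, 13.9% and 21.0%, or 7.52%, 11.4% and 15.3%. Over the same levels the share of falls not called on the second day dropped, at 44.7%, 29.4% and 22.2%. The share that continued was 44.4%, 52.6% and 53.8%, and across batches 26.8%, 42.8% and 43.9%, or 35.4%, 53.3% and 55.9%. Both outcomes were thus called more often at higher levels, and how far this sets the order was not tested. All shares by level given here are with TMM scaling, and the order was not checked with unscaled library sizes. Over all levels, 6.86% of first-day falls and 38.8% of first-day rises reversed unscaled, against 18.0% and 20.1% with TMM.

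**Figure D5:**
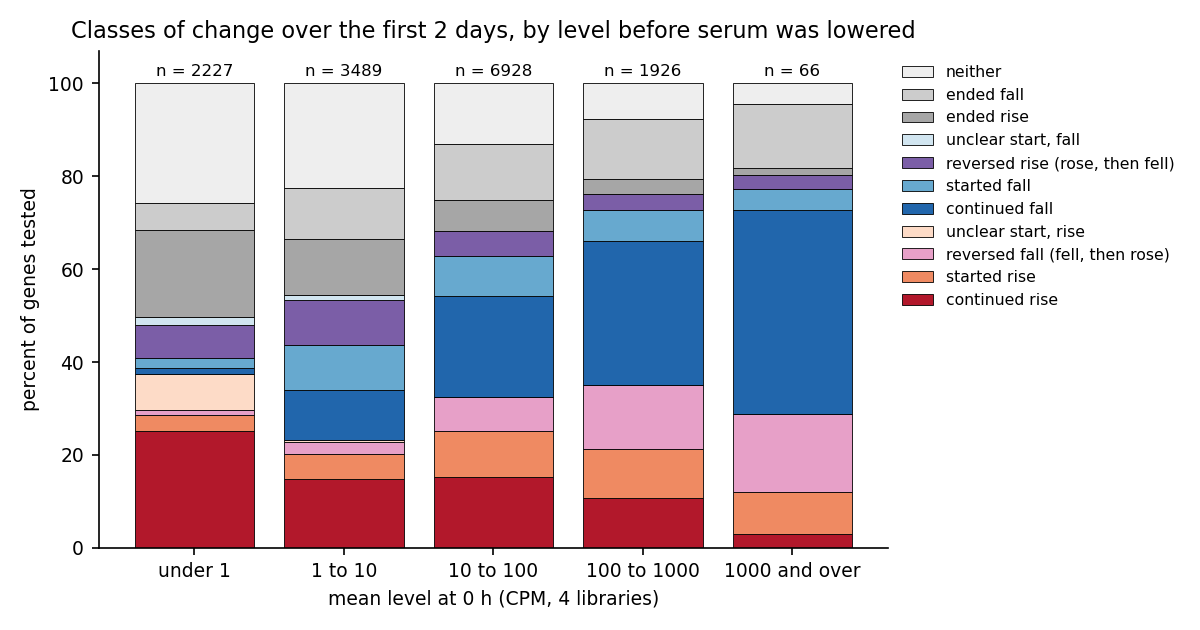
Percent of the genes tested in each class (vertical axis, stacked to 100%) by mean level at 0 h in CPM (horizontal axis), with the number of genes above each bar. Continued falls grow from low to high levels, and reversed falls go from 93 of 3489 genes at 1 to 10 CPM to 266 of 1926 genes at 100 to 1000 CPM. The 0 h libraries set the levels and enter the first-day change, which favours first-day falls at high levels.

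When genes were instead ranked by their mean over all 20 libraries, which includes the levels reached later, 67% of the changed genes at 100 to 1000 CPM and 76.8% of those at 1000 CPM and over rose on the second day. A rise lifts a gene's own mean, so high levels by this ranking favour rises. By level at 0 h the shares that rose were 45.9% and 35.8%, so no link of abundance with rising is read from this ranking. With TMM scaling the median rise was larger than the median fall at every mean level, at 1.63 against -1.09 on the log2 scale under 1 CPM, 0.55 against -0.36 at 100 to 1000 CPM and 1.20 against -0.62 at 1000 CPM and over. Ranked by the mean over all 20 libraries, the shares that rose with unscaled library sizes were 40.5% and 65.8%. The direction by this mean thus turned at 100 to 1000 CPM and held at 1000 CPM and over.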

How the data were processed

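PolyA RNA was sequenced from 20 libraries with 75 bp reads and a stranded kit, per the labels. The submitters' processing notes name STAR 2.7, featureCounts and build bosTau9. Parameters, strand setting and annotation were not given in the sources used here. Raw counts per gene were deposited by the authors for 27607 genes, with totals of 21100797 to 41998509 per library. No 2 libraries of a time point agreed within sampling noise.

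Analysis used R 4.3.3 with edgeR 4.0.16. filterByExpr (minimum count 10, minimum total 15) kept 14636 genes. After TMM scaling, all 20 libraries entered a quasi-likelihood model of time point plus batch, with Benjamini-Hochberg adjustment over all genes. Standard errors were derived from the F statistic. Contrasts were 48 h against 24 h, 24 h against 0 h, 48 h against 0 h, the difference between the days, and the batch by second-day difference. The scripts were tested on simulated data. Exact permutations used scipy 1.17.1, and DESeq2 1.42.0 was an alternative. Within-batch values came from fits to each batch's 10 libraries.

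Genes named are those with the largest second-day change among called genes whose mean in the 8 libraries reached 10 CPM and that showed no overlap between 24 h and 48 h: 1 continued rise, 1 started rise, 1 continued fall and 1 reversed rise. Gene lists by symbol were not tested, since 0 identifiers had a symbol. The comparisons, classes and rule were chosen with earlier results of these data known. The replicate letters did not pair the libraries. Floors cover counting error only.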

Additional observations from a re-analysis of the deposited data

Results flagged for a closer look

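Dixon's test at the 95% level was applied to 57 sets of 4 replicates and found 1 library standing apart in 5 of them. Chance gives about 1 in 20 independent sets. These sets reuse the same libraries, the class shares of a library depend on each other, and each set spans both batches. The rate is therefore no firm yardstick here. Replicate C at 24 h held 9.65% of its counts in started rises, where the others held 9.29 to 9.33%, and 6.56% in reversed rises, where the others held 7.01 to 7.09%. Replicate D at 24 h held 9.76% in genes whose first-day fall ended, against 9.36 to 9.39%. Replicate A at 0 h held 33.3% in continued falls, against 32.5 to 32.6%. At 48 h replicate C held 24.6% of its counts in its own 100 most abundant genes, and the others 24.0 to 24.1%. Without replicate C at 24 h, or without any other of the 12 libraries at 0, 24 and 48 h, the counts of genes in every class stayed within 1.5 times the reported number.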

How the results depend on the processing

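Library sizes without scaling moved more of the counts than any other setting: 48 h against 24 h gave 2666 higher and 8132 lower (1590 at least 2-fold lower), the difference between the days 1496 higher and 6759 lower, and the classes 465 started rises, 2660 started falls, 292 reversed falls, 2038 reversed rises, 723 ended falls and 195 unclear falls. Batch 2 alone, with 2 libraries a group, gave 4120 genes for the difference between the days (1993 higher, 2127 lower), 1660 continued falls, 424 reversed falls, 516 reversed rises and 165 unclear falls, and batch 1 alone 140 unclear falls. At an adjusted p under 0.01 there were 603 reversed falls and 134 unclear falls. Unclear rises numbered 294 without the low-count filter, 110 with the libraries of 0, 24 and 48 h alone and 423 with a limit of 1.1-fold for a start, which left 445 unclear falls. The batch test called 10 genes without the filter, and 0 to 2 without single libraries, with 2 when replicate D at 24 h was left out. Without single libraries the calls for 48 h against 24 h ranged from 8722 to 9051. The gain of the 10 most abundant genes ranged from 2.56 to 2.79 points, that of the 100 most abundant from 5.87 to 6.11 points, and the change in the number of genes holding 50% of the counts from -243 to -234, each at an exact permutation p of 0.0571, the smallest that 3 against 4 allows. The cause of these differences was not tested. In all, 502 numbers of genes were within 1.5 times the one reported and 27 were not, and the 4 named genes kept direction and call in 72 of 72 values.

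The replicate letter as a block gave 9111 genes for 48 h against 24 h and changed no call of a count or named gene. Deviations of libraries with the same letter at 24 h and 48 h had correlations from 0.00 to 0.33, over 0.1 in 3 of 4, and in 0 of 4 cases was a library's own letter its best match, so the letters were not taken as pairs. Between 0 h and 24 h the own letter was the best match for B (0.27) and D (0.20), and 8 of all 12 same-letter correlations among 0, 24 and 48 h were over 0.1.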
